A study of Mus musculus with 13 samples.

Results

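The comparison set mouse livers late after regrowth, at 3 months and 6 months after surgery, against livers at 14 days after it. Its members were every gene of the panel in the sections labelled 14d, 3m and 6m, 5 of the 13 sections of the series, with 61777 of its 131221 cells, 29739311 transcripts inside cells and 100 panel genes. All animals were male C57BL/6 mice labelled as 2 months old and fed chow. In those of the 5 sections compared, 2/3 of the liver was removed, and the regrown lobes were frozen and cut. Molecular Cartography, an in situ method that decodes single transcripts by repeated rounds of fluorescent probes, was run by Resolve Biosciences, and transcripts were counted in cells outlined on a nuclear stain.

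The 14 d group had 3 sections, and the late group had 1 section at 3 mo and 1 at 6 mo. No label gives separate animals for the sections of a time, so p-values measure the spread between sections, which may be technical. If the labelled age is that at surgery, the late mice were older as well, and age and time since surgery cannot be told apart. All 14 d sections lay on slide 3, the 3 mo section on slide 1 and the 6 mo section on slide 2, so slide and group cannot be told apart either, and no fit with slide as a term can be made for this contrast. Sections labelled 0 h (1 on each of slides 1 and 2) are given for reference.

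Liver lobules are built around a central vein, with portal veins at their edge, and hepatocytes differ along that axis. Central hepatocytes carry drug oxidation, glutamine synthesis and bile acid synthesis under Wnt signals that come largely from endothelial cells of the central vein, while portal hepatocytes carry urea and glucose synthesis. After part of the liver is removed, the remaining hepatocytes enter the cell cycle and shift away from part of this specialized expression, which is regained as growth ends.

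The 14 d sections held 7104425, 9619206 and 7345023 transcripts in 11479, 15644 and 15817 cells, or a mean of 619, 615 and 464 per cell. The 3 mo section held 2779502 in 8119 cells (342 per cell) and the 6 mo section 2891155 in 10718 cells (270 per cell). The gap was also present without cell outlines: in square tiles of 400 coordinate units, all transcripts averaged 8703 and 8357 per tile in 14 d sections 1 and 2 (no position list of section 3 was used here), 4501 at 3 mo and 3615 at 6 mo. The 0 h sections averaged 342 and 339 transcripts per cell and 4957 and 4887 per tile. From 0 h to 72 h, all off slide 3, sections ran from 333 to 512 per cell and from 4442 to 6199 per tile. Depth at 14 d was thus above that at 0 h, and the part of slide 3 was not tested. Because depth differed, every gene tested was fitted on 2 scales. Its relative level is given as counts scaled to a library of 1000000 after correction by the trimmed mean of M-values (CPM, TMM). This scaled value is called a share below, but it is not the plain fraction of a section's transcripts. The TMM factors were 1.33, 1.11 and 1.19 at 14 d, 1.11 at 3 mo and 0.872 at 6 mo. At 0 h they were 0.804 and 0.622. Orders given in CPM, those against 0 h included, rest on these factors. Percents of transcripts, thinned or not, are plain fractions. The other scale is transcripts per cell. Gene levels and changes given below without a per-cell value are shares only. Fewer cells of a type and less RNA per cell cannot be told apart in a section's sum. The tissue label held: 6 hepatocyte genes (Cyp2e1, Cps1, Ass1, Arg1, Pck1 and Glul) made up 41.8% to 43.6% of transcripts at 14 d, 48.4% at 3 mo and 53.4% at 6 mo, and no cell was shared between sections. The 14 d sections differed from each other by a root mean square of 0.32 to 0.40 in log2(CPM + 1) over the genes tested, whereas 3 mo and 6 mo differed by 1.12.

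The promoters of the genes that turned out to move together are shown first, because the glutathione transferase genes Gstm1, Gstm2 and Gstm3 lie side by side on chromosome 3 and fell together, and because Cyp2e1 and Cyp1a2 are central cytochrome genes that both rose. Each runs from 250 bases before to 50 bases after the gene's start on the stated strand, from RefSeq, build GRCm38.p6: Gstm3 at chr3:107969125-107969424 (minus), Gstm2 at chr3:107986371-107986670 (minus), Gstm1 at chr3:108017769-108018068 (minus, the more downstream of its 2 starts), Cyp2e1 at chr7:140763569-140763868 (plus) and Cyp1a2 at chr9:57683606-57683905 (minus). Capitals mark a match to CTTTGAA or CTTTGAT on either strand, the core that the TCF and LEF factors of the Wnt pathway recognize.
Gstm3: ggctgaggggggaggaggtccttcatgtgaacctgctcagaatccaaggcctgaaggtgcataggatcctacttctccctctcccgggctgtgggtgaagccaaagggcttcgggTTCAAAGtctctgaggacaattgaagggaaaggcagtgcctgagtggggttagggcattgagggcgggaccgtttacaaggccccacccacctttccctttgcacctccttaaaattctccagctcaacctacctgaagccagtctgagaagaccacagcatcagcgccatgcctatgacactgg
Gstm2: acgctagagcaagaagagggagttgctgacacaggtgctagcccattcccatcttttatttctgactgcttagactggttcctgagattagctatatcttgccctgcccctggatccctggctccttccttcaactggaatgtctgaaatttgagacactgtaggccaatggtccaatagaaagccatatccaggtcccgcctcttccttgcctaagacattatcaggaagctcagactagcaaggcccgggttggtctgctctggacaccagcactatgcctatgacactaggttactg
Gstm1: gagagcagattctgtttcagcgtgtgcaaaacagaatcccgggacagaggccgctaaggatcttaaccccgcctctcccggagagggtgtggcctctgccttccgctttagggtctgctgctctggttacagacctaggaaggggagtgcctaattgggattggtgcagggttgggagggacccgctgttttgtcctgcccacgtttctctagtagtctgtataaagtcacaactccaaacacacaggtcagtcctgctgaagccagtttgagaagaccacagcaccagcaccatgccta
Cyp2e1: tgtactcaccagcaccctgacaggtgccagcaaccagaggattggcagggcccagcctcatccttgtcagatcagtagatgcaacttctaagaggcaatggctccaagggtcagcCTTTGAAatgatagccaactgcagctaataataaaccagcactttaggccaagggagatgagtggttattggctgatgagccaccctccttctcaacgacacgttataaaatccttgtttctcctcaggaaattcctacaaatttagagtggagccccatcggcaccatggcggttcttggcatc
Cyp1a2: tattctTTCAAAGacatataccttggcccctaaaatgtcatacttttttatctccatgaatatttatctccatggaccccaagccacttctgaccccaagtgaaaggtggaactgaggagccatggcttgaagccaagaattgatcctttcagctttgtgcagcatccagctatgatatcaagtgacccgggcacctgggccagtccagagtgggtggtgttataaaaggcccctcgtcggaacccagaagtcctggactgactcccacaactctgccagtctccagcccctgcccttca
The match stood in 9.88% of the 27025 genes with a promoter in that table and in 9 of the 70 tested panel genes that matched it, so its presence in a gene that rose (Cyp2e1, Cyp1a2) and one that fell (Gstm3) is a description only. The antioxidant response element core TGACNNNGC, searched on both strands, stood in 14.0% of all these genes and 17 of the 70, among them Fzd9, Igfbp2 and Wnt2b of the genes called below, and in none of the 3 Gstm windows. Between Gstm1 and Gstm3 the longest run of identical bases in these windows was 16 bases, between Gstm2 and Gstm3 14 bases, and between Gstm1 and Gstm2 9 bases. Both motifs were chosen with the expression values known.

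On the TMM-scaled shares, 12 of 99 genes tested (12.1%) were higher late than at 14 d and 8 (8.08%) were lower. The test was edgeR's quasi-likelihood test with Benjamini-Hochberg adjustment at 0.05, with 3 sections against 2. It gave 20 calls in all (20.2%), with a smallest edgeR adjusted p of 0.00126. The higher ones included the central cytochrome genes Cyp2e1 and Cyp1a2, the complement gene C6, the lipid-chain elongase gene Elovl2, the urea cycle gene Cps1 and, within the Wnt pathway, Znrf3, Lrp6, Wnt4, Fzd9 and Wnt8a. The lower ones were Gstm1, Gstm2 and Gstm3, the Wnt target gene Axin2, Sulf2, Wnt2b, Fzd2 and the lipoprotein gene Apof. Scaling by total counts moved the median gene down by a further 0.29 in log2 and gave 8 higher (8.08%) and 14 lower (14.1%) genes, 22 in all (22.2%), with all 8 among the 12 and all 8 of the lower genes again called; the calls of Cps1, Cyp1a2, Igfbp2 and Wnt8a were lost. Without section 1, 2 or 3 of 14 d 6, 7 and 7 genes were higher, and without the 3 mo section 19 were higher and 15 lower. Counted without a test, both late sections lay above all 14 d sections in 22 genes (22.2%) and below them in 29 (29.3%). With the 14 d sections summed to 1 library, which leaves fewer sections to measure spread, C6 was the 1 higher gene and Fzd2, Gstm1 and Gstm2 the 3 lower ones.

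Per cell the picture was one-sided: 0 genes were higher and 44 of 99 (44.4%) were lower by the same test with cell number as offset, where the median gene stood 1.16 below its TMM value in log2 and 90 of 99 genes were negative. Both late sections lay below all 14 d sections in 70 genes (70.7%). No gene was higher at an unadjusted p under 0.05 there (a count of 0), and DESeq2 with cell numbers as size factors called 0 higher and 51 lower. The 8 genes lower as shares were all lower per cell, and 0 of the 12 higher ones were called lower per cell. Of those 12, Cyp2e1 (-0.08), Cyp1a2 (-0.09), Igfbp2 (-0.27) and Cps1 (-0.49) had a negative log2 change per cell. Others were positive without a call, C6 at 0.69, Elovl2 at 0.66, Lrat at 0.43 and Znrf3 at 0.41. A higher share below is relative to the other panel genes, and a change per cell was not called for any of the 12. Without section 2 of 14 d, or without the 6 mo section, 27 genes were lower per cell.

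**Figure D1:**
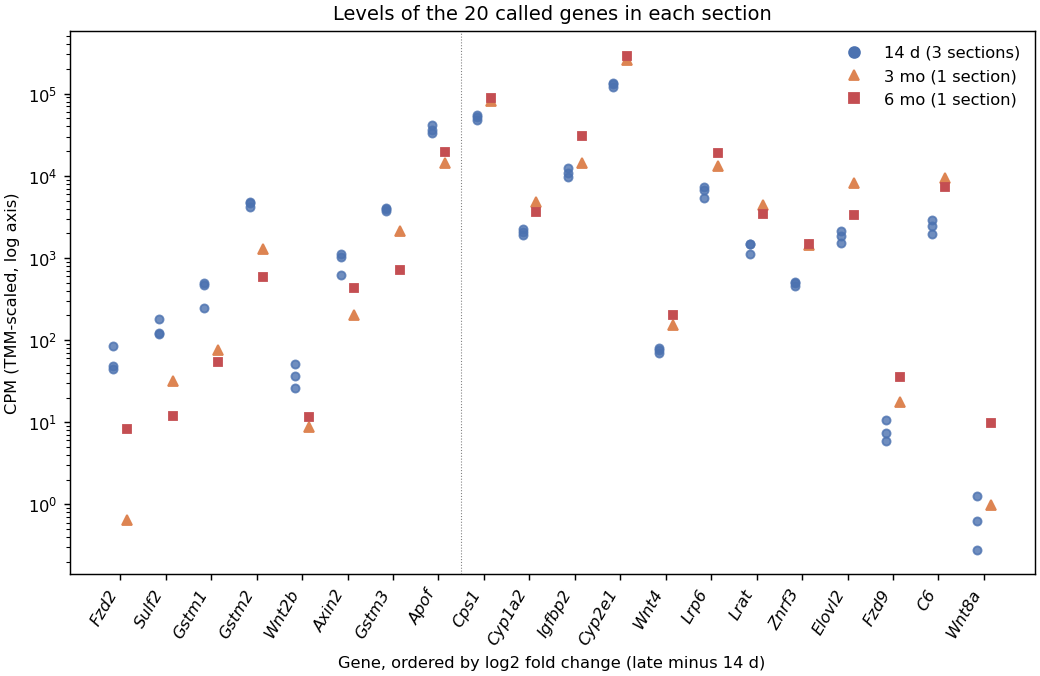
Level of each of the 20 genes called on the share scale, in TMM-scaled CPM on a log axis, with 1 point per section (circles 14 d, triangles 3 mo, squares 6 mo) and genes ordered by log2 fold change. Both late points lie beyond all 14 d points in every gene but Wnt8a, and Gstm2 sits at 4212 to 4844 CPM at 14 d against 1296 and 589 CPM late.

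**Figure D2:**
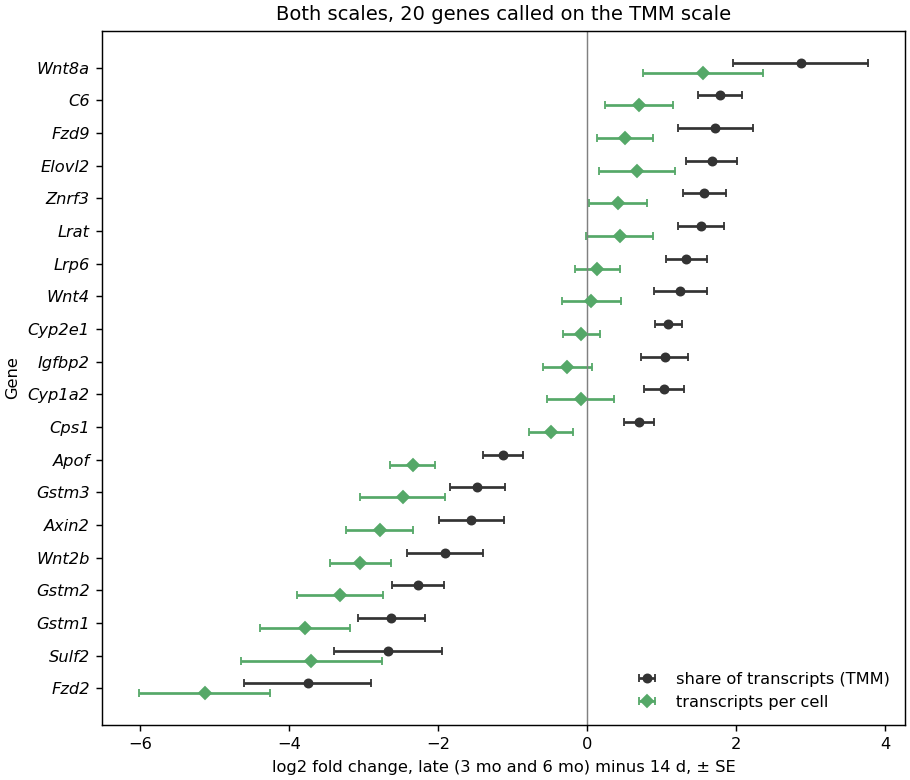
Log2 fold change, late minus 14 d, with its standard error for the same 20 genes as a TMM-scaled share (dark circles) and per cell (green diamonds). The per-cell value lies to the left in every gene, at 0.69 against 1.78 for C6 and at -0.08 against 1.09 for Cyp2e1.

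Cyp2e1, a cytochrome that oxidizes ethanol and many drugs in central hepatocytes, rose in both late sections. It stood at 119831, 135740 and 129742 CPM in the 14 d sections, at 258143 CPM at 3 mo and at 287991 CPM at 6 mo, a log2 change of 1.09 ± 0.18 (SE; edgeR adjusted p 0.00126), against 426360 and 429055 CPM at 0 h. In CPM both late sections lay above all 14 d sections and below both 0 h sections. As a plain percent of transcripts Cyp2e1 took 15.9%, 15.1% and 15.5% at 14 d, 28.6% at 3 mo and 25.1% at 6 mo. At 0 h it took 34.3% and 26.7%, so the 3 mo section lay between the 0 h sections. Per cell the groups overlapped, with 98.6, 92.7 and 72.0 transcripts at 14 d, 98.0 at 3 mo and 67.7 at 6 mo.

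Cyp1a2, the central cytochrome that clears caffeine, stood at 2045, 2259 and 1883 CPM at 14 d, 4784 CPM at 3 mo and 3627 CPM at 6 mo (1.03 ± 0.27, edgeR adjusted p 0.0171). In CPM the late sections lay above 14 d, and the 0 h sections were higher still at 9979 and 5803 CPM. As a plain fraction of transcripts 3 mo (14754 of 2779502) exceeded section 2 of 0 h (14434 of 4000802). The call ended without section 1 of 14 d (1.02, adjusted p 0.0568 in edgeR) and without section 3 (0.95, 0.0744), and with total-count scaling (0.76, 0.139). Glul, glutamine synthetase, is made in the hepatocytes next to the central vein. It stood at 4266, 3778 and 2906 CPM at 14 d, 5660 CPM at 3 mo and 7632 CPM at 6 mo. These shares did not overlap, but the change did not pass (0.86 ± 0.34, edgeR adjusted p 0.0968). Per cell the late sections of Glul did not both lie above 14 d.

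The mu-class glutathione transferases, which conjugate electrophiles to glutathione, fell in every measured member. All 3 of 3 passed, against 8.08% lower over all 99 genes, and their median log2 change was -2.27 against -0.05. Gstm2 stood at 4616, 4844 and 4212 CPM at 14 d, 1296 CPM at 3 mo and 589 CPM at 6 mo (-2.27 ± 0.34, edgeR adjusted p 0.00126). Gstm1 stood at 468, 494 and 244 CPM at 14 d, 76.2 CPM at 3 mo and 53.6 CPM at 6 mo (-2.63 ± 0.45, edgeR adjusted p 0.00134). In both genes every late section lay below every 14 d section. In CPM the late values of Gstm1 were near or below those at 0 h (72.4 and 119 CPM), and those of Gstm2 were below them (1549 and 1716 CPM). As a plain fraction of transcripts, Gstm2 at 3 mo (3997 of 2779502) exceeded both 0 h sections (4746 of 3814333 and 4268 of 4000802).

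Gstm3 fell from 3910, 4104 and 3740 CPM at 14 d to 2105 CPM at 3 mo and 710 CPM at 6 mo (-1.48 ± 0.37, edgeR adjusted p 0.0137), with 1961 and 2165 CPM at 0 h. In CPM the 3 mo value was thus close to the 0 h levels and the 6 mo value below both. As a plain fraction of transcripts 3 mo (6492 of 2779502) exceeded both 0 h sections (6010 of 3814333 and 5385 of 4000802). Fitted on the 5 sections alone, the Gstm3 call ended (-1.33, edgeR adjusted p 0.112). It also ended on the full position lists, which lack section 3 of 14 d (-1.21, 0.0800 in edgeR). Without the 6 mo section the call ended (-0.79, adjusted p 0.0706 in edgeR), and without the 3 mo section the change was -2.46. The sources used here do not give the probe sequences that separate these 3 similar transcripts, and how far their signals mix is unknown. Gstm2 stood at -2.95 without the 3 mo section and at -1.70 without the 6 mo section, and Gstm1 at -2.91 and -2.29, each still called. Per cell the falls were larger, at -3.32 for Gstm2, -3.78 for Gstm1 and -2.48 for Gstm3.

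Of the portal hepatocyte list, 3 of 19 tested genes rose and 1 fell, against 12.1% and 8.08% over all genes, with a median of -0.01. C6, a component of the complement membrane attack complex, stood at 1938, 2864 and 2481 CPM at 14 d, 9493 CPM at 3 mo and 7231 CPM at 6 mo (1.78 ± 0.30, edgeR adjusted p 0.00126), against 20405 and 13456 CPM at 0 h. In CPM it lay clear of all 14 d sections and below 0 h. As a plain fraction of transcripts 3 mo (29276 of 2779502) exceeded section 2 of 0 h (33467 of 4000802). Per cell the values were 1.59, 1.96 and 1.38 at 14 d, 3.61 at 3 mo and 1.70 at 6 mo, so only 3 mo was above. C8b, of the same complex, had a change of 0.19 ± 0.26 and Vtn, vitronectin, of 0.36 ± 0.34, and neither passed.

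Elovl2, which lengthens polyunsaturated fatty acids, stood at 1522, 2109 and 1833 CPM at 14 d, 8257 CPM at 3 mo and 3305 CPM at 6 mo (1.67 ± 0.34, edgeR adjusted p 0.00341). The 3 mo section carried most of it: the change was 2.31 without the 6 mo section and 0.86 without the 3 mo section, past the threshold either way. The 0 h sections had 6596 and 4926 CPM. Per cell 3 mo lay above all 14 d sections and 6 mo below them, at 25463 counts in 8119 cells and 8330 in 10718. The 14 d sections held 14375, 22528 and 16086 counts of Elovl2 in 11479, 15644 and 15817 cells. Fads1, the desaturase that works in the same pathway, had a change of -0.04 ± 0.27.

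Cps1, the entry enzyme of the urea cycle, rose from 52122, 55695 and 48016 CPM to 80376 CPM at 3 mo and 87461 CPM at 6 mo (0.69 ± 0.20, edgeR adjusted p 0.0226). The groups did not overlap as shares, but per cell they did, at 42.9, 38.0 and 26.6 against 30.5 and 20.6. The call ended without any of the 14 d sections (0.69, 0.73 and 0.62 without sections 1, 2 and 3) and without the 6 mo section (0.74). It also ended with total-count scaling (0.40, adjusted p 0.139 in edgeR), in DESeq2 (0.73, 0.0539) and on the full position lists, which lack section 3 of 14 d (0.56, 0.217 in edgeR). Its partners Arg1 (0.49 ± 0.26) and Ass1 (-0.23 ± 0.30) did not pass. Of 9 urea cycle and amino acid genes 1 rose and none fell, against 12.1% and 8.08% over all genes.

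Apof, an apolipoprotein gene, fell from 33288, 41838 and 36432 CPM to 14301 CPM at 3 mo and 19481 CPM at 6 mo (-1.14 ± 0.27, edgeR adjusted p 0.00886). Both late sections were below 14 d, and the 0 h sections, at 21867 and 37500 CPM, spanned much of the range. On the full position lists, which lack section 3 of 14 d, the call ended (-1.08, adjusted p 0.0536 in edgeR). Per cell it went from 27.4, 28.6 and 20.2 transcripts to 5.43 and 4.58 (-2.34 ± 0.30, edgeR adjusted p 0.000495). Of the 8 HDL and lipid genes Apof fell and Elovl2 rose, against 8.08% lower and 12.1% higher over all genes. Apom stood at -0.36 ± 0.30 and Pon1 at -0.49 ± 0.30.

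Igfbp2, a binding protein for insulin-like growth factors, stood at 12300, 10906 and 9810 CPM at 14 d, 14524 CPM at 3 mo and 30653 CPM at 6 mo (1.04 ± 0.31, edgeR adjusted p 0.0279). The 6 mo section carried the rise, which was 0.50 without it and 1.48 without the 3 mo section. The call also ended without section 1 (1.12), 2 (1.02) or 3 (0.95) of 14 d. Igf1, the growth factor itself, had a change of 0.09 ± 0.35 and Igfals, its carrier subunit, of -0.16 ± 0.59.

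Bile acid and gluconeogenic genes gave no calls in edgeR on this scale. Of 4 bile acid and taurine genes 0 passed, 1 was lower at an unadjusted p under 0.05 and DESeq2 called 0, with a median of -0.96: Cyp8b1, the sterol hydroxylase that sets bile acid make-up, stood at 3571, 3677 and 3482 CPM against 2081 and 1975 CPM without overlap (-0.82 ± 0.36, edgeR adjusted p 0.133), and Cyp7a1, the rate-limiting enzyme, at -1.24 ± 1.26. Of 3 gluconeogenic genes 0 passed, while 1 (G6pc) was higher at an unadjusted p under 0.05 and in DESeq2, with a median of -0.09. G6pc, glucose-6-phosphatase, stood at 2950, 3917 and 4092 CPM at 14 d, 6347 CPM at 3 mo and 35258 CPM at 6 mo (2.51 ± 0.98, edgeR adjusted p 0.128), with 13474 and 108643 CPM at 0 h. Pck1, the enzyme that commits to glucose synthesis, had a change of -0.09 ± 0.55 and Fbp1, fructose bisphosphatase, of -0.29 ± 0.23.

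Of 18 Wnt ligands tested 2 rose and 1 fell, near the shares over all 99 genes (12.1% and 8.08%), with a median of -0.0024. Wnt4 stood at 69.7, 79.9 and 75.9 CPM at 14 d, 155 CPM at 3 mo and 203 CPM at 6 mo (1.25 ± 0.35, edgeR adjusted p 0.0209), with no overlap, and its call ended without section 1 (1.20), 2 (1.28) or 3 (1.24) of 14 d. Wnt2b fell from 26.3, 36.8 and 50.9 CPM to 8.76 and 11.5 CPM (-1.91 ± 0.51, edgeR adjusted p 0.0171), close to the 0 h levels of 5.87 and 12.1 CPM. Sections off slide 3 held 14 to 48 counts of Wnt2b and those on it 248 to 447, and the part of the slide was not tested. The call ended without section 3 of 14 d (-1.65, 0.0744).
The endothelial ligands of the central vein showed no call: Wnt2 had a change of 0.26 ± 0.34 and Wnt9b of -0.36 ± 0.36, and the enhancer Rspo3 of 0.12 ± 0.48. Wnt8a passed (2.86 ± 0.91, edgeR adjusted p 0.0356) on 6, 3 and 11 counts at 14 d against 3 at 3 mo and 25 at 6 mo, so the groups overlapped and the 6 mo section decided the call (0.56 without it, and 3.77 without the 3 mo section). It ended likewise without section 1 (2.79), 2 (2.45) or 3 (3.46) of 14 d. Wnt3 had too few counts to be tested.

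Among 12 Wnt receptors and co-receptors 2 rose and 1 fell, near the 12.1% and 8.08% over all genes, with a median of 0.03. Lrp6, the co-receptor that passes the canonical signal, rose from 5297, 6651 and 7221 CPM to 13209 CPM at 3 mo and 18828 CPM at 6 mo (1.33 ± 0.27, edgeR adjusted p 0.00348), above 14 d in both sections, while per cell it stood at 4.36, 4.54 and 4.01 against 5.02 and 4.43. Fzd9, a scarce frizzled receptor, was the 1 gene of 99 (1.01%) above all 14 d sections per cell in both late sections (1.72 ± 0.50 as a share, edgeR adjusted p 0.0232). That rests on 56, 80 and 94 counts at 14 d against 55 and 89, and the call ended without section 1 (1.54) or 2 (1.66) of 14 d and without the 6 mo section (1.27).
Fzd2 was called lower (-3.76 ± 0.86, edgeR adjusted p 0.00741), with 454, 905 and 390 counts at 14 d against 2 at 3 mo and 21 at 6 mo. The 3 mo section against 14 d gave a ratio of 0.0107 (95% counting interval 0.0013 to 0.0388). Every section off slide 3, the 0 h to 72 h ones included, held between 0 and 21 counts of Fzd2, and the part of the slide in this change was not tested. Without the 6 mo section the change was -6.32, and without the 3 mo section -2.82.

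Of the R-spondin and target list 1 of 10 rose and 2 fell, against 12.1% and 8.08% over all genes, with a median of 0.23. Znrf3, a ligase that removes frizzled receptors from the cell surface and is itself a Wnt target, rose from 458, 499 and 506 CPM to 1432 CPM at 3 mo and 1461 CPM at 6 mo (1.57 ± 0.29, edgeR adjusted p 0.00198), near the 0 h values of 1594 and 1043 CPM. As shares, the spread of Znrf3 within each group was small and the gap wide. Per cell its change was 0.41 without a call (edgeR adjusted p 0.360), and the late sections did not both lie above 14 d. Axin2, a scaffold of the complex that degrades beta-catenin and a general Wnt target, fell from 626, 1030 and 1127 CPM to 204 CPM at 3 mo and 427 CPM at 6 mo (-1.56 ± 0.44, edgeR adjusted p 0.0209), near 450 and 499 CPM at 0 h. Its call ended without section 2 (-1.49) or 3 (-1.40) of 14 d and without the 3 mo section (-1.12).
Sulf2, a heparan sulfate editing enzyme that frees Wnt ligands, fell from 120, 183 and 123 CPM to 32.1 and 11.9 CPM (-2.68 ± 0.72, edgeR adjusted p 0.0177), with the call ended without section 2 of 14 d (-2.47) or the 6 mo section (-2.01) and at -3.57 without the 3 mo section. Rnf43, the relative of Znrf3, was not called (0.34 ± 0.34). Lgr5, the R-spondin receptor of the central ring, stood at 55.7 to 58.1 CPM at 14 d, 82.4 CPM at 3 mo and 88.5 CPM at 6 mo. These CPM did not overlap, but Lgr5 was not called (0.58 ± 0.37, edgeR adjusted p 0.276). As a plain fraction of transcripts 6 mo (223 of 2891155) lay just below section 1 of 14 d (549 of 7104425), so the groups overlapped. Per cell its late sections did not both lie above 14 d. Over the wider central hepatocyte list 3 of 23 tested genes rose (Cyp2e1, Cyp1a2 and Znrf3) and 4 fell (Axin2 and the 3 Gstm genes), with a median of -0.14, against 12.1% and 8.08% over all genes.

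Cell cycle genes were not called in either direction (0 of 4 in edgeR and 0 in DESeq2, with 1, Ccnd1, higher at an unadjusted p under 0.05; median -0.42). Ccnd1, the cyclin of entry into the cycle, stood at 3176, 4162 and 4093 CPM at 14 d, 4698 CPM at 3 mo and 6561 CPM at 6 mo (0.56 ± 0.26, edgeR adjusted p 0.137), above the 0 h values of 2353 and 1913 CPM. Both late sections were higher than 14 d as shares, while per cell they were lower, at 1.78 and 1.54 against 2.27 to 2.84. Ccnb1, the mitotic cyclin, had 21 counts over the 14 d sections and 1 over the late ones, a ratio of 0.246 at equal TMM-scaled depth (95% counting interval 0.00594 to 1.53). Ccna1 had 0 counts at 6 mo, at least 2.09-fold lower than at 14 d against a floor of 3 counts. The 3 mo section held 8 counts of Ccna1 at a TMM-scaled depth of 3083820. The 14 d sections held 17, 25 and 30 at depths of 9445130, 10682200 and 8773910.

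Of the heme and mitochondrial genes 0 of 5 were called in edgeR or DESeq2 and 0 had an unadjusted p under 0.05 (median -0.04), and Cpox, of heme synthesis, stood at 0.56 ± 0.35. Among markers of the other liver cells the stellate gene Lrat, which stores retinol as esters, was the 1 called. It rose from 1117, 1480 and 1472 CPM to 4394 CPM at 3 mo and 3425 CPM at 6 mo (1.53 ± 0.31, edgeR adjusted p 0.00341). Per cell 3 mo lay above all 14 d sections and 6 mo below them, at 13549 counts in 8119 cells and 8631 in 10718. The 14 d sections held 10546, 15814 and 12912 counts of Lrat in 11479, 15644 and 15817 cells. Summed Kupffer cell and macrophage markers (Adgre1 and Lyz2, 2 measured, neither at 0) ran from 5297 to 7373 CPM at 14 d against 9159 and 12099 CPM late. Neither gene passed in edgeR, and Lyz2 (0.78 ± 0.28, adjusted p 0.0625) did in DESeq2. Summed endothelial markers (Pecam1, Wnt2, Wnt9b and Rspo3) ran from 4124 to 5440 CPM against 3412 and 3092 CPM, where Pecam1 (-0.72 ± 0.26, edgeR adjusted p 0.0675) passed in DESeq2 and not in edgeR. The leukocyte marker Ptprc ran from 965 to 1321 CPM against 659 and 677 CPM, and Sox9 with Cldn7, of bile duct cells and progenitors, from 626 to 846 CPM against 434 and 980 CPM. The part of these cell types in the hepatocyte changes above was not tested.

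Shares of cells with a marker transcript were compared after each cell was thinned to 100 transcripts, since late cells were shallower, which kept 97.0%, 97.0% and 95.6% of cells at 14 d, 93.2% at 3 mo and 83.0% at 6 mo. An exact permutation test of 3 sections against 2 cannot go below a two-sided p of 0.2, so these shares are described. Of 10 markers the late shares lay above all 14 d shares for 2 and below them for 5.

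Lrat transcripts were seen in 13.04%, 13.6% and 14.4% of cells at 14 d, 33.0% at 3 mo and 23.4% at 6 mo (exact p 0.2). The late shares were higher both in hepatocyte-rich cells, where at least 50 of the 100 transcripts came from the 6 hepatocyte genes, and in all others. That class held 27.7%, 24.1% and 26.3% of thinned cells at 14 d, 31.7% at 3 mo and 46.1% at 6 mo. Cyp2e1 and Cps1, called higher late, are among the 6 genes, so the classes are not like for like between groups. In hepatocyte-rich cells, which should lack Lrat, the Lrat shares were 4.18%, 5.02% and 4.88% at 14 d against 18.2% and 12.7%. In the other cells they were 16.4%, 16.3% and 17.8% against 39.8% and 32.6%. Median depths before thinning were 744, 739 and 570 transcripts in hepatocyte-rich cells at 14 d, 479 at 3 mo and 345 at 6 mo, and 602, 605, 452, 277 and 225 in the other cells. Without thinning the shares of all cells were 33.1%, 33.8% and 30.7% against 51.1% and 36.3%.

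Lyz2, a lysozyme gene of macrophages, was seen in 19.7%, 20.7% and 19.9% of cells at 14 d against 26.9% and 27.0% late (exact p 0.2), but thinned to 200 transcripts the shares overlapped. In hepatocyte-rich cells they were 6.10%, 7.56% and 7.22% against 12.1% and 11.5%. Adgre1, the F4/80 gene of Kupffer cells, overlapped at 6.19%, 7.40% and 6.20% against 8.10% and 6.86%.
Ptprc, the pan-leukocyte gene CD45, was seen in fewer late cells, at 9.77%, 10.8% and 9.19% against 6.70% and 5.25% (exact p 0.2). Pecam1, of endothelial cells, stood at 25.3%, 26.9% and 26.6% against 24.3% and 18.1%, but in hepatocyte-rich cells at 9.57%, 11.14% and 11.17% against 15.03% and 11.24%, above 14 d. Wnt9b, of central vein endothelium, stood at 1.64%, 1.42% and 1.45% against 0.912% and 0.900%. In cells that were not hepatocyte-rich Wnt9b was seen in 1.91%, 1.46% and 1.54% at 14 d against 0.271% and 0.292% late, whereas in hepatocyte-rich cells it went the other way, from 0.940%, 1.28% and 1.18% to 2.30% and 1.61%. Sox9 and Cldn7 were also below 14 d in all cells. Sox9 overlapped, though, in cells that were not hepatocyte-rich (6.17%, 6.47% and 6.69% against 5.49% and 7.66%) and when thinned to 50 transcripts. Wnt2 and Rspo3 overlapped in all cells. In hepatocyte-rich cells Wnt2 lay above 14 d, at 2.04%, 2.62% and 2.16% against 5.68% and 3.56%. The hepatocyte-rich class itself was larger late, and the part of this in the differences by class was not tested.

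**Figure D3:**
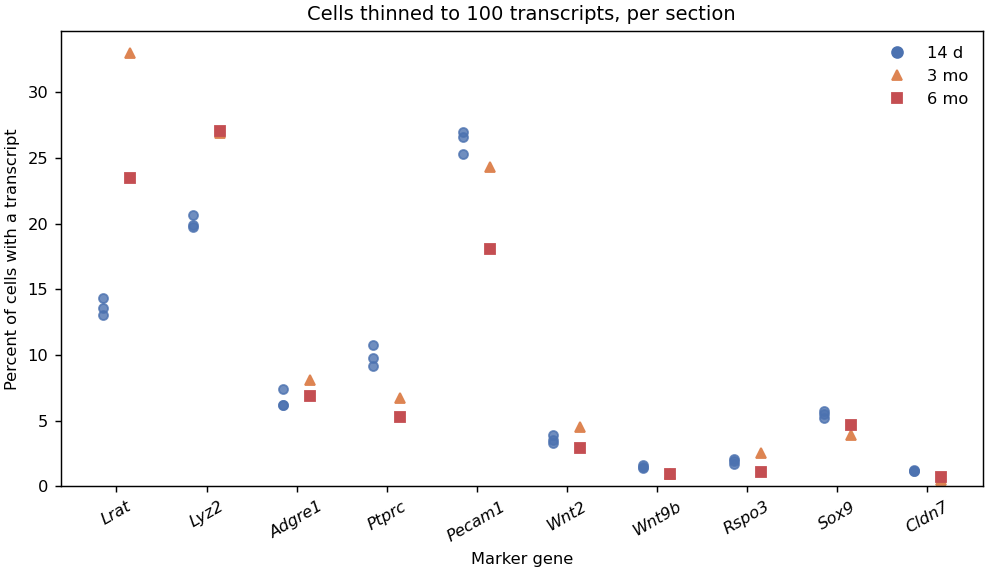
Percent of cells with at least 1 transcript of each of 10 marker genes after thinning to 100 transcripts per cell, 1 point per section (circles 14 d, triangles 3 mo, squares 6 mo). Lrat and Lyz2 lie above all 14 d sections late, and Ptprc, Pecam1, Wnt9b, Sox9 and Cldn7 below.

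Position along the lobule was read from each thinned cell as a central-minus-portal score, the mean standardized level of 9 central genes minus that of 6 portal genes, always without the gene under study. Cells of each section were then ranked and cut into a portal, a middle and a central zone of equal cell number. The rank correlation of each of 58 genes with the score was compared between groups with limma after Fisher transformation and Benjamini-Hochberg adjustment. No gene passed higher or lower (0%, a count of 0 each way; smallest adjusted p in limma 0.0569), 15 had an unadjusted p under 0.05 and 13 of these were lower late. The late values lay below all 14 d values for 24 genes (41.4%) and above them for 3 (5.17%). Other readings of position gave calls: with the score of the 8 nearest other cells, chosen after seeing the data, 1 gene was higher and 17 were lower, and over tiles in sections with a position list 0 were higher and 10 lower.

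Cyp2e1 took 34.4%, 33.3% and 33.2% of the thinned transcripts in the central zone at 14 d, and 50.2% and 46.1% in the late sections. In the portal zone it took 2.20%, 2.10% and 2.37% against 0.921% and 2.66%. As shares, the late sections thus lay above 14 d centrally and on both sides of it portally. Per cell before thinning, the central values of Cyp2e1 overlapped, at 221, 214 and 167 transcripts against 254 and 174. Its correlation with the score was 0.72, 0.70 and 0.68 at 14 d, 0.82 at 3 mo and 0.72 at 6 mo.

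Cps1 differed by zone the other way. Its central share was 4.77%, 4.63% and 4.38% at 14 d against 4.405% and 4.72%, while its portal share was 7.52%, 6.56% and 6.09% against 12.9% and 9.88%. As shares, the late sections thus lay within the 14 d range centrally and above it portally. Per cell before thinning they lay below 14 d centrally, at 18.1 and 13.2 transcripts against 30.2, 28.7 and 20.6. Portally they were not above it, at 41.3 and 29.9 against 51.6, 44.8 and 31.6. Its correlation with the score went from -0.30, -0.25 and -0.23 to -0.60 and -0.44 (limma adjusted p 0.0924).
Fads1 and Epas1, a hypoxia factor gene, shared the smallest adjusted p in limma (0.0569). For Epas1 the correlation was -0.03, -0.02 and -0.01 at 14 d against -0.21 and -0.13. For Fads1 it was -0.11, -0.10 and -0.05 at 14 d against -0.46 and -0.29. Its central share was between 1.26% and 1.55% at 14 d and 0.870% and 0.603% late, below all 14 d sections. Elovl2 (adjusted p 0.132 in limma), Igfbp2 (0.148) and Fbp1 (0.40) completed the 5 largest shifts toward the portal end, and Cyp2e1 (0.286), Cyp1a2 (0.148), Rgn (0.598), Pon1 (0.158) and Cldn2 (0.462) the 5 largest toward the central end, none of which passed.

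The falls of Gstm2, Axin2 and Apof showed in every zone. Gstm2 was highest in the central zone at 14 d (1.03%, 0.840% and 0.819%) and late (0.264% and 0.111%), and in the portal zone it went from 0.444%, 0.399% and 0.373% to 0.0694% and 0.0317%. Axin2 likewise stood at 0.145%, 0.158% and 0.164% centrally at 14 d against 0.0377% and 0.0553%. Apof, highest in the portal zone, stood there at 5.60%, 5.76% and 5.21% against 2.49% and 2.50%. In all 3 zones of these 3 genes both late sections were below every 14 d section.
C6, which was nearly flat at 14 d (0.240%, 0.274% and 0.265% portally, 0.279%, 0.364% and 0.352% centrally), stood at 1.19% and 0.704% portally and 0.736% and 0.603% centrally late. Znrf3 was above 14 d in every zone, with a ratio of late to 14 d means of 2.07 centrally and 2.77 portally. Ccnd1 stood at 0.627% centrally at 14 d and 0.619% late, and at 0.626% and 0.970% in the middle zone. Per cell before thinning, its middle zone values were lower late, at 2.38 and 1.94 transcripts against 3.05, 3.33 and 2.63 at 14 d.

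**Figure D4:**
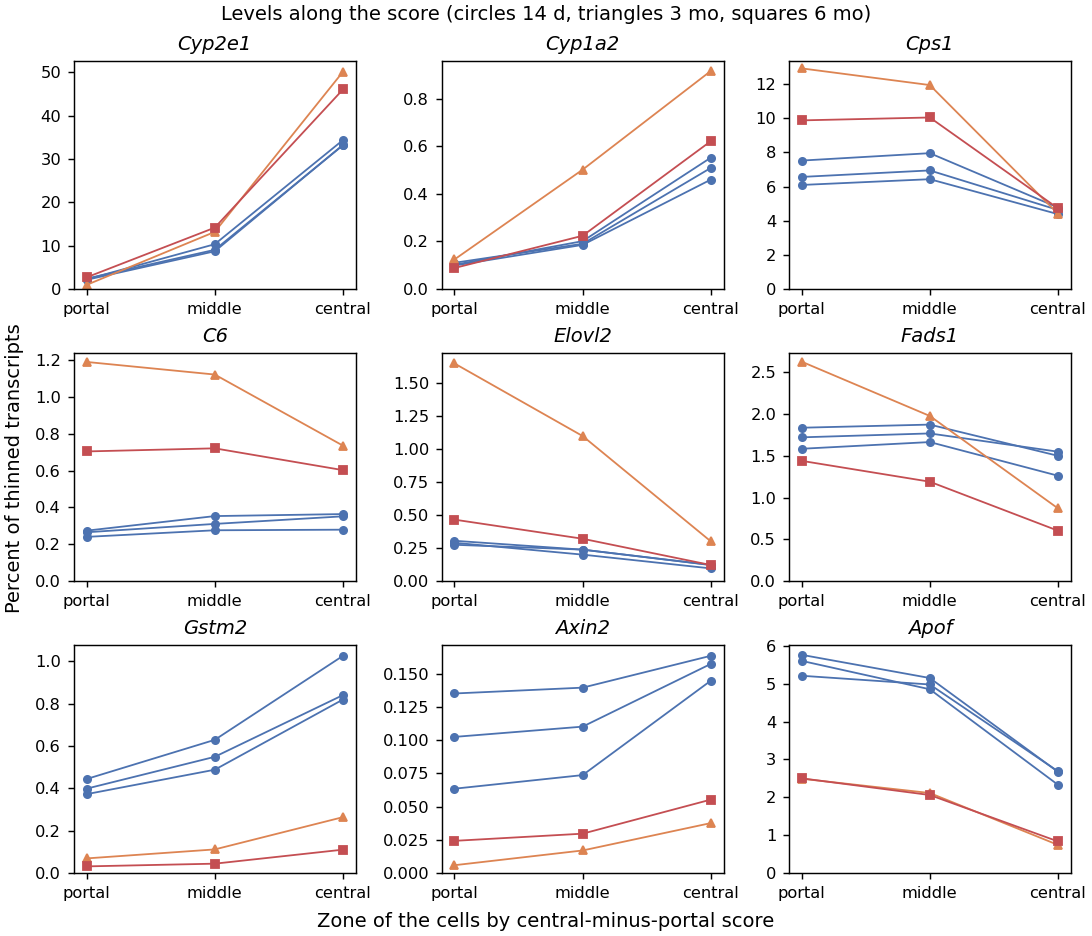
Percent of the thinned transcripts taken by 9 genes in the portal, middle and central zone of cells by score, 1 line per section (blue circles 14 d, orange triangles 3 mo, red squares 6 mo), each panel on its own linear axis from 0. As shares, late sections exceed 14 d centrally for Cyp2e1 and portally for Cps1, and lie below it in all 3 zones for Gstm2, Axin2 and Apof.

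Taken singly, with each lone section assumed to vary like the other times, the 3 mo section had 9 genes higher (9.09%) and 11 lower (11.1%) than 14 d, and the 6 mo section 19 higher (19.2%) and 15 lower (15.2%), by edgeR with Benjamini-Hochberg adjustment. At 3 mo the largest rises among called genes were those of Elovl2 (2.18 ± 0.28), C6 (1.97 ± 0.31), Lrat (1.70 ± 0.34), Lgr4, an R-spondin receptor (1.56 ± 0.42), and Znrf3 (1.55 ± 0.34). The largest falls among called genes were those of Fzd2, Wnt11 (-2.85 ± 0.72), Gstm1 (-2.40 ± 0.58), Axin2 (-2.19 ± 0.52) and Wnt2b (-2.11 ± 0.65), with Fzd1 (-1.34 ± 0.45) also lower; sections off slide 3 held 28 to 176 counts of Wnt11 and those on it 572 to 1086. Without section 2 of 14 d 6 genes were lower, and without section 3 7 were.
At 6 mo the largest rises among called genes were those of Wnt8a (3.77 ± 0.78), Fzd9 (2.13 ± 0.53), Slc16a10, an aromatic amino acid transporter (2.12 ± 0.54), Wnt10a (1.97 ± 0.41) and Fzd6 (1.77 ± 0.48). Ccnd1 (0.78 ± 0.29), Glul (1.06 ± 0.38) and Lyz2 (0.98 ± 0.31) were called higher there too (edgeR adjusted p 0.0436, 0.0444 and 0.0185). The largest falls among called genes were those of Sulf2 (-3.57 ± 0.98), Hif1a, the oxygen-sensing factor (-3.36 ± 0.97), Gstm2 (-2.95 ± 0.37), Gstm1 (-2.91 ± 0.60) and Fzd2 (-2.82 ± 0.76), with Csad of taurine synthesis (-2.68 ± 0.76), Rgn, regucalcin (-1.86 ± 0.38), and Cyp27a1, a bile acid enzyme (-1.35 ± 0.35), also lower. Without section 1 of 14 d 11 genes were higher, and without section 3 12 were. With scaling by total counts the 6 mo counts were 11 higher and 23 lower. Relative to cell number the 3 mo section had 1 gene higher and 27 lower, and the 6 mo section 1 higher and 61 lower. Fitted on the 5 sections alone, where the spread comes from the 14 d sections only, the counts were 32 and 27 at 3 mo and 34 and 28 at 6 mo.

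Between the late sections, 5 genes were called higher (5.05%) and 9 lower (9.09%) at 6 mo than at 3 mo by the same edgeR test. Neither side has a replicate, so the calls set these sections against the spread measured at other times. Rgn, a calcium-binding protein of hepatocytes, stood at 6403, 8438 and 6910 CPM at 14 d, 10506 CPM at 3 mo and 1993 CPM at 6 mo, so the late sections lay on opposite sides of 14 d. Elovl2 (8257 and 3305 CPM at 3 and 6 mo), Igf1 (16944 and 6572 CPM) and Cyp27a1 (12700 and 4223 CPM) were lower at 6 mo as well. Wnt10a (429 and 1971 CPM), Fzd6 (21.4 and 137 CPM) and Vtn (42992 and 104831 CPM) were higher at 6 mo. With 1 section and 1 slide at each late time, section, slide and time cannot be told apart, and under total-count scaling 2 genes were higher.

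**Figure D5:**
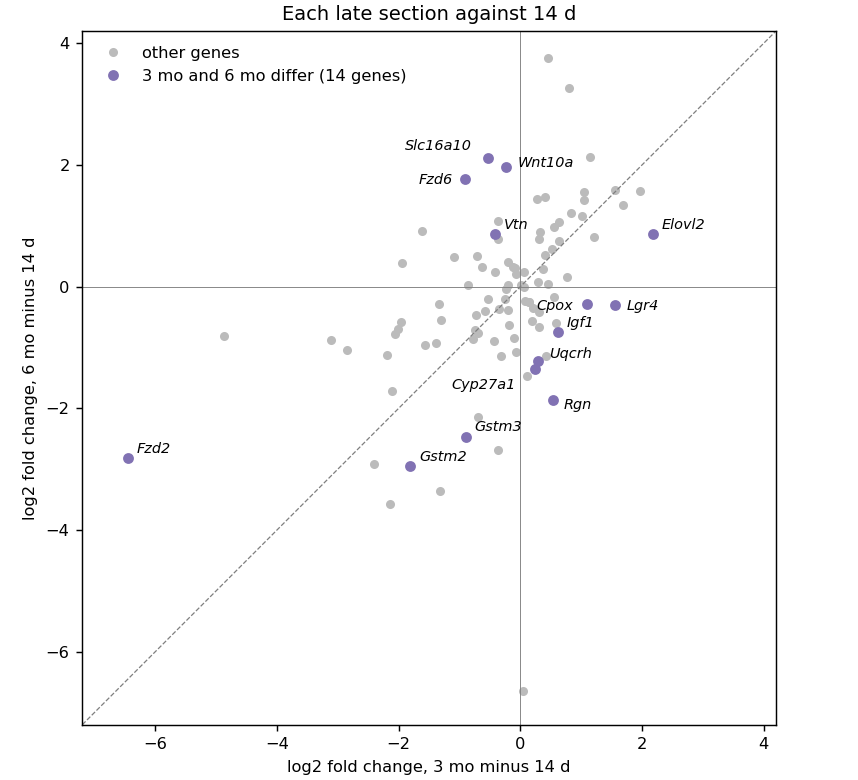
Log2 fold change against 14 d of the 6 mo section (vertical) over that of the 3 mo section (horizontal) for 99 genes, with the 14 genes called different between the late sections in purple; both axes share the 14 d sections, so the points are not independent. Rgn lies at 0.54 and -1.86 and Elovl2 at 2.18 and 0.86, and the lowest point is Ccna1, with 0 counts at 6 mo.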

How the data were processed

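The authors deposited whole-number transcript counts per gene and segmented cell for each section, and, for most sections, the position of every decoded transcript; decoding and segmentation settings have no description in the sources used here. Counts were summed per section, with both 24 h sections joined as 1 library because they share a slide position. The quasi-likelihood test of edgeR 4.0.16 (robust, TMM) was fitted to 12 libraries in 6 groups, 3 mo and 6 mo forming 1 group (6 residual degrees of freedom), and in 7 groups for the late sections singly (5), on 99 genes (10 or more counts, in 2 or more libraries), with Benjamini-Hochberg adjustment over all of them at 0.05. Per-cell tests used cell number as offset. Score correlations used limma 3.58.1 on genes whose sum reached 500 in each section, and DESeq2 1.42.0 was an alternative. Scripts were tested on simulated data. Counting intervals cover counting error only.

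Named genes were the up to 12 largest rises and falls past the threshold whose late sections lay beyond all 14 d sections, then 2 more per list at most, 13 genes given whatever their values, and the 5 largest changes each way for the score and for single sections; Ass1, Ccna1, Epas1, Rnf43, Sox9 and Wnt3 were added after their values were seen. The members and lists were chosen with earlier results of these data known. Lists not described above gave 1 higher and 0 lower of 3 genes for complement and vitronectin and for the IGF axis, and 0 calls in edgeR for Kupffer cells and macrophages (2 genes; 1 unadjusted, 1 in DESeq2), leukocytes (1; 1 and 0), endothelium (4; 1 and 1) and cholangiocytes and progenitors (3; 0 and 0). The score's central side gave 2 higher and 1 lower of 9 genes, and its portal side 1 and 0 of 6. Over all 99 genes 12.1% were higher and 8.08% lower.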

Additional observations from a re-analysis of the deposited data

Results flagged for a closer look

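The 14 genes below were called different between the 3 mo and the 6 mo section in their change against 14 d, by edgeR's quasi-likelihood test of the difference with Benjamini-Hochberg adjustment over 99 genes. There was 1 section on each side and no replicate, so the spread is that of the other times. Values are log2 differences, 6 mo minus 3 mo.

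Lower at 6 mo were Rgn (-2.40, adjusted p 0.00257), Lgr4 (-1.87, 0.0385), Cyp27a1 (-1.59, 0.0211) and Gstm3 (-1.57, 0.0122). Uqcrh, a subunit of respiratory complex III, stood at -1.52 (edgeR adjusted p 0.0383), Cpox at -1.38 (0.033), Igf1 at -1.37 (0.033), Elovl2 at -1.32 (0.033) and Gstm2 at -1.14 (0.0457).

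Higher at 6 mo were Vtn (1.29, edgeR adjusted p 0.0394), Wnt10a (2.20, 0.0211), Slc16a10 (2.66, 0.0353), Fzd6 (2.68, 0.0211) and Fzd2 (3.63, 0.0457). Slc16a10 rests on 16 counts at 3 mo and 83 at 6 mo, and Fzd2 on 2 and 21.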

How the results depend on the processing

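Over 59 named genes and 19 other settings, 941 values kept their direction and their side of the threshold or moved by less than the spread, 71 lost a call, 65 gained one, 30 moved and 5 reversed. All 5 reversals came from scaling by cell number, where Cps1 stood at -0.49, Igfbp2 at -0.27, Cyp1a2 at -0.092, Cyp2e1 at -0.082 and Vtn at -0.92 in log2. The calls of Fzd2, Gstm1 and Gstm2 held under every setting in which the gene was tested.

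For late against 14 d (12 higher, 8 lower), scaling by cell number gave 0 and 44, the 14 d sections as 1 library 1 and 3, total-count scaling 14 lower, DESeq2 13 lower, 3 mo and 6 mo as separate times 15 lower, the 24 h sections as 2 libraries 14 lower, and the full position lists instead of cells, without section 3 of 14 d, 4 lower. Leaving out 1 section gave 6 to 19 higher and 6 to 15 lower. Leaving Fzd2 out of the counts and Cyp2e1 out of the scaling, chosen after seeing the data, gave 13 and 8, with Fzd2 itself not tested.

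For 3 mo alone (9 and 11), cell number gave 1 and 27, the 5 sections alone 32 and 27, the 14 d sections as 1 library 3 and 5, and leaving out 1 section 6 to 9 and 6 to 9. For 6 mo alone (19 and 15), total counts gave 11 and 23, cell number 1 and 61, the 5 sections alone 34 and 28, 1 library 6 and 8, and leaving out 1 section 11 to 14 and 11 to 13. For 6 mo against 3 mo, total counts gave 2 higher. Per cell (0 and 44), leaving out 1 section gave 0 to 1 and 27 to 61.

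For the score (0 and 0), the 8 nearest cells gave 1 and 17, tiles 10 lower, thinning to 200 transcripts 3 lower, and leaving out 1 section 0 to 1 and 0 to 7. Thinned to 200, 1 marker lay above 14 d, and leaving out 1 section gave 2 to 5 above and 5 to 7 below. The cause of these changes was not tested.

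No paired analysis was possible because the 3 mo and 6 mo sections are single and carry no section number that pairs them with the 14 d sections. Late sections held 2779502 and 2891155 transcripts against at least 7104425 at 14 d, so scarce genes are less precise late.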
